A study of Mus musculus with 2 samples.

Results

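Islet macrophages were selected on transcript counts in both single-cell libraries: at most 10% mitochondrial UMIs, Ins1 and Ins2 together below 15%, Gcg below 3% and Sst below 2% of a cell's UMIs, and at least 10 UMIs of C1qa, C1qb and C1qc together. UMIs are unique molecular identifiers, which count captured transcript molecules; 3' tags count a transcript regardless of its length. The rule found 66 of 4523 kept cells in the wild type library (1.46%, 95% Clopper-Pearson interval 1.13 to 1.85) and 40 of 4151 in the transgenic library (0.964%, 0.689 to 1.31). Both libraries were prepared from islets of C57BL/6 mice aged 70 days (10 weeks), 1 from wild type mice and 1 from mice with a miR-503 transgene specific to beta cells. The sources used here do not give the promoter of the transgene, how many mice each library holds or their sex. Xist, the transcript of the inactive X chromosome in females, was found in 364 of 2724 transgenic beta cells (up to 50 UMIs) and 9 of 3215 wild type ones (at most 1 UMI), and in 2 transgenic and 0 wild type macrophages. There is no replicate check, no difference between the genotypes was tested, and a genotype cannot be told apart from its library; all intervals cover counting error only.

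Macrophages are the resident phagocytes of the islet. They lie along the islet capillaries, take up secretory granules and debris from beta cells, and present peptides on MHC class II molecules. C1q, the first component of the classical complement pathway, is made by tissue macrophages, whereas CSF1R is the growth factor receptor on which they depend.

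The transgene encodes a microRNA, a short RNA that pairs with messenger RNAs through its seed, bases 2 to 8. Its mature sequence in RefSeq (GRCm38.p6, chrX:53054027-53054049, minus strand) is shown with the seed in capitals because it is the agent that distinguishes the groups; the libraries count polyadenylated transcripts and did not measure it.
mmu-miR-503-5p: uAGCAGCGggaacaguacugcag

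The macrophages held a median of 10704 UMIs (6100 to 25207) and 2248.5 detected genes in the wild type library, and 10249 UMIs (6926 to 19340) and 2221 genes in the transgenic library. Their summed counts were 757616 and 421902 UMIs. Insulin transcripts made up a median of 2.55% of their UMIs in the wild type and 2.63% in the transgenic library. In endothelial cells, which do not make insulin, the medians were 2.17% and 2.59%. Insulin UMIs near this level were thus present in classes that do not make insulin, and in macrophages they were read as background. No macrophage barcode was among the 25 barcodes that both libraries share.

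C1q levels describe the rule and were not read as a result. The C1q genes lie side by side on chromosome 4, from C1qb (chr4:136880129-136886187, mm10) to C1qa (chr4:136895917-136898803). Their sum per cell ran from 11 to 320 UMIs (median 89.5) in the wild type and from 36 to 250 (median 83.5) in the transgenic library. Just outside the limit, with 5 to 9 C1q UMIs and low hormone, lay 11 wild type and 3 transgenic cells. Just inside it, with 10 to 15 UMIs, lay 6 wild type cells and no transgenic cell. Of those 6, 3 went against the label. They held 2, 10 and 40 UMIs of Cd74, the MHC class II invariant chain, whereas every other wild type macrophage held 178 to 938.

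Each of these 3 cells carried transcripts of another cell type. The first had 410 UMIs each of gastrin (Gast) and cholecystokinin (Cck) and 3573 of the beta cell peptide Iapp, and its 13 C1q UMIs were all C1qa. The wild type library held 26 cells with at least 10 Gast UMIs. Together they gave 178 C1qa UMIs (257 CPM, UMIs scaled to a total of 1e6) and none of C1qb or C1qc, so C1qa alone carried such cells towards the limit. The second had 113 UMIs of endothelial markers, and the third 57 of stromal markers with 5905 detected genes. The transgenic library held no cell with 10 Gast UMIs. The main results that move are also given over the 63 wild type and 35 transgenic macrophages with at least 100 Cd74 UMIs. This limit was chosen after the values were seen. It leaves out the 3 wild type cells and also 5 transgenic macrophages, which are described below. No setting left out the 3 cells alone, so a move under this limit cannot be assigned to them. The set with at least 100 Cd74 UMIs is not free of other types' transcripts. A wild type cell with 748 Cd74 UMIs stayed in it with 55 UMIs of B cell markers and 0 of Lyz2. Another wild type cell stayed in it with 46 UMIs of endothelial markers.

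All 7 markers that define the label were detected in both libraries. C1qa, C1qb and C1qc are used by the rule, so their detection is no result. Tyrobp, the signalling adaptor of activating myeloid receptors, had at least 1 UMI in 66 of 66 and 40 of 40 macrophages, with medians of 19 and 20 UMIs per cell. Csf1r was found in 60 and 38 macrophages (medians 3.5 and 3 UMIs), and Cd68, a lysosomal membrane glycoprotein, in 62 and 40 (medians 5 and 5). In the wild type library 1.96% of endothelial cells, at a median of 8060.5 UMIs per cell, had a Tyrobp UMI, and 0 of 102 had a Csf1r UMI. In beta cells, at a median of 23413 UMIs, the shares were 6.91% for Tyrobp and 3.02% for Csf1r.

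Against beta, alpha, delta, endothelial and B cells of the same library, 133 of 2344 genes with at least 50 UMIs (5.67%) were at least 4-fold higher in macrophages than in every one of these classes in both libraries. Lyz2, the macrophage lysozyme, reached 1726 CPM in wild type and 10284 CPM in transgenic macrophages. No other class exceeded the level that 3 UMIs give in the smallest class, 14.6 CPM (wild type B cells) and 13.6 CPM (transgenic endothelial cells), below which folds are limited by class size. Apoe, the lipid transport protein, stood at 23024 and 28291 CPM, at least 24.2-fold above any other class. The cysteine protease Ctss (3853 and 4013 CPM), the lectin Lgals3 (2934 and 3491 CPM) and the Fc receptor gamma chain Fcer1g (1935 and 2261 CPM) were among the 15 most abundant genes of this set. Fth1, the ferritin heavy chain, was the most abundant at 34766 and 34954 CPM, but only 6.78-fold above the highest other class in the library where the fold was smaller.

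**Figure D1:**
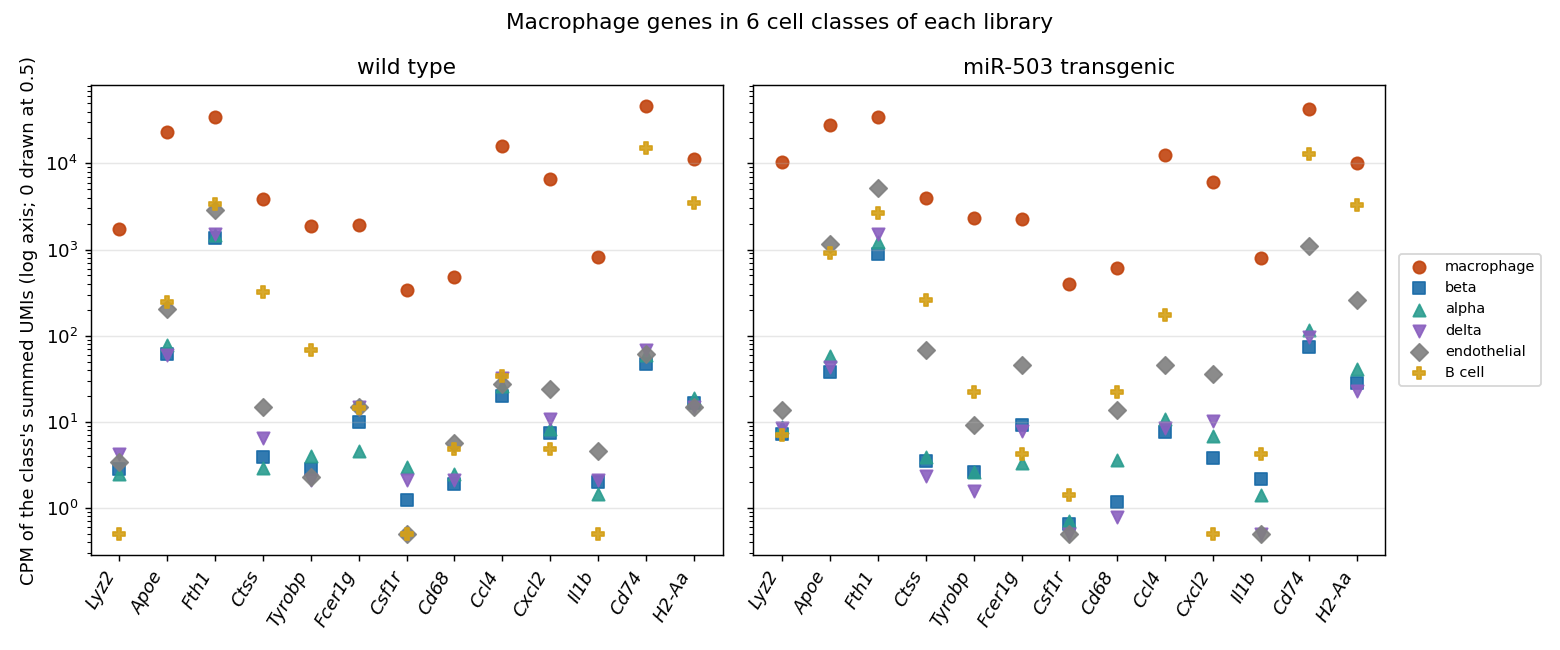
CPM of 13 genes (x axis) in the summed UMIs of 6 cell classes (symbols), with 1 panel per library and a log y axis on which 0 is drawn at 0.5. Macrophages lie highest for all 13 genes in both libraries, and for Cd74 and H2-Aa the B cells come closest, at 15146 and 3462 CPM in the wild type library.

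Secreted inflammatory mediators led the genes that separated macrophages from the other classes. Ccl3, Ccl4 and Ccl5, chemokines that attract lymphocytes and monocytes, reached 4773, 15827 and 4713 CPM in wild type macrophages, and 3091, 12629 and 3174 CPM in transgenic ones. Cxcl2, a neutrophil attractant, had 6594 and 6016 CPM and lay 166-fold above the highest other class in the library where the fold was smaller. Tnf reached 1028 and 901 CPM and Il1b 820 and 806 CPM, and neither passed the 3-UMI level in any other class. Of 13 chemokine genes with 50 UMIs, 11 were in the called set, beside 5.67% of all genes. Immune genes of less familiar function were called too, among them Ms4a7 (647 and 766 CPM) and the inhibitory receptor Lilr4b (598 and 536 CPM).

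Antigen presentation genes were very abundant but are shared with B cells. Cd74 held 34911 UMIs in wild type and 17918 in transgenic macrophages (46080 and 42470 CPM), 3.04-fold above B cells in the library where the fold was smaller. H2-Aa, H2-Ab1 and H2-Eb1, chains of the class II molecules, lay 3.07-, 3.58- and 3.54-fold above the highest other class. None of these 4 genes passed 4-fold. Of the 10 tested genes of the class II list, 2 did, beside 5.67% of all genes.

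Most transcripts that mark macrophages of other tissues were scarce, with 1 of the 17 genes of that list reaching 50 UMIs. Mrc1, the mannose receptor, had 2 UMIs in each library, Lyve1 had 2 and 0, and Cd163, the haemoglobin scavenger receptor, had 0 in both. Vsig4, Chil3, Retnla and Clec10a were at 0 in both libraries as well. The gene past 50 UMIs was Timd4, with 1 and 63 UMIs. Adgre1, which encodes F4/80, had 101 and 42 UMIs, Itgax, which encodes CD11c, 65 and 30, and the fractalkine receptor Cx3cr1 28 and 42. Ccr2, the receptor by which monocytes enter tissue, had 25 and 17 UMIs in 11 and 8 cells. Over the 8 monocyte markers together the macrophages held 43 and 25 UMIs, with 4 of the 8 at 0 in each library. Over the 10 dendritic cell markers they held 186 and 68 UMIs, of which the interferon-induced gene Ifi205 gave 111 and 41. Neutrophil markers gave 10 and 15 UMIs.

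Macrophages of a single library differed from each other by far more than counting gives. Among 488 genes with at least 100 UMIs in each library, 282 (57.8%) had a variance over cells at least 2 times the value expected from counting at each cell's depth, in both libraries. The threshold of 2 was chosen after the values were seen. When each cell was thinned to 5000 UMIs, 43.6% of the 259 genes left did so.

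Chemokines led that spread on the ratio of variance to counting, which grows with a gene's abundance at equal relative spread. Ccl4 ran from 0 to 1029 UMIs per cell (median 68) in the wild type library and from 0 to 831 (median 46) in the transgenic library, and its variance was 367 and 268 times counting. Cxcl2 ran from 0 to 449 (median 39.5) and from 0 to 745 (median 8). The ranges of both genes overlapped fully at their low ends, with 9 wild type and 6 transgenic macrophages lacking Ccl4. Chemokine genes together made up a median of 2.59% of a wild type macrophage's UMIs (0.0218% to 15.7%) and 1.77% of a transgenic one's (0.0110% to 11.4%). Csf1r varied 2.06 and 2.60 times counting, and Cd68 3.04 and 2.39 times. Their medians were only 3.5 and 3 UMIs (Csf1r) and 5 and 5 UMIs (Cd68) per cell. These ratios therefore cannot be set against those of the far more abundant Ccl4.

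The share of interferon-induced transcripts and the share of chemokine transcripts moved together over wild type macrophages (Pearson's r 0.71, Spearman's rho 0.68, n = 66 cells). Over transgenic macrophages r was 0.07 and rho 0.24 (n = 40 cells). In the transgenic library the chemokine share instead moved with the heat shock share (r 0.49, rho 0.53), which it did not in the wild type library (r 0.01, rho 0.22). These cells share a library and a total count as denominator, so the values are descriptions, and the difference between the libraries was not tested. With only the macrophages of at least 100 Cd74 UMIs, r for interferon-induced and chemokine genes was 0.70 (n = 63) and 0.02 (n = 35).

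**Figure D2:**
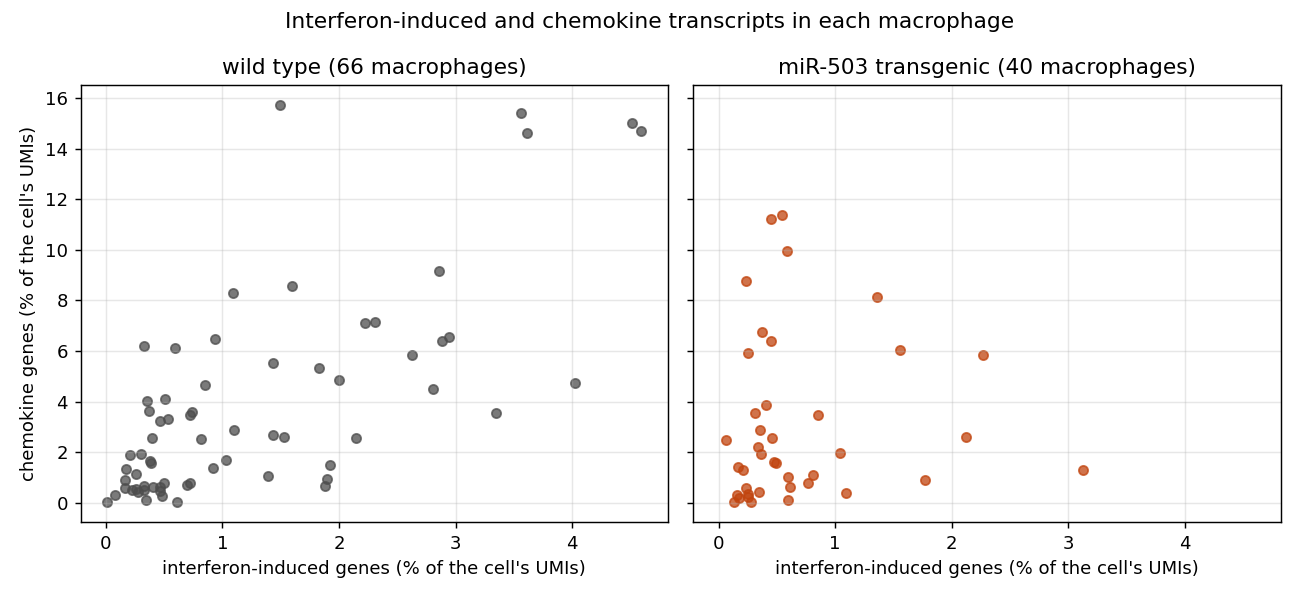
Each point is 1 macrophage, with the share of its UMIs from 30 interferon-induced genes on the x axis and from 18 chemokine genes on the y axis, and 1 panel per library. Wild type cells extend to 4.59% and 15.7%, transgenic cells to 3.13% and 11.4%.

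A few transgenic macrophages stood apart. Pla2g2d, a secreted phospholipase A2 (chr4:138775735-138782046, mm10), was present in 5 of 40 transgenic macrophages, at 48, 43, 21, 15 and 12 UMIs. The other 35 transgenic macrophages and all 66 wild type macrophages had 0. The 5 cells were singled out after their values were seen, so what follows describes them without a test. They were the same 5 transgenic macrophages that held under 100 Cd74 UMIs, at 8, 10, 20, 11 and 2, against 210 to 966 in the other 35.

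Of macrophage transcripts that the rule did not use, these 5 cells held 15 to 31 Tyrobp UMIs and 2 to 14 Csf1r UMIs. Their 36 to 232 C1q UMIs are bound to the rule, which asks for at least 10. Lyz2 reached 108 to 1091 UMIs in them, and they held 2870 of the 4339 Lyz2 UMIs of transgenic macrophages. They also held 60 of 63 UMIs of Timd4, the phosphatidylserine receptor TIM-4 that binds dying cells. Complement C3 gave 113 of its 117 UMIs there, properdin (Cfp) 52 of 60, and the nuclease Dnase1l3 64 of 73. Cd4, which macrophages as well as T cells can make, gave 33 of 40 UMIs, whereas Cd3e and Cd3g were at 0 in all transgenic macrophages. Of 933 genes with 50 UMIs over the transgenic macrophages, 25 (2.68%) were at least 4-fold higher in these 5 cells than in the other 35. Another 113 (12.1%) were at least 4-fold lower. The 25 include Pla2g2d, by which the cells were chosen. Pla2g2d, C3, Timd4, Cfp and Dnase1l3 passed 50 UMIs only through the 5 cells, so the count of 25 is bound to that choice. The 5 cells held 60910 of 421902 UMIs, so lower calls such as Rala (1 against 50 UMIs) rest on few UMIs.

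On the low side, MHC class II went with Cd74. H2-Aa had 0 to 7 UMIs in each of the 5 cells and a 95% interval of the log2 ratio to the other 35 of -6.16 to -4.70. Cd14, the lipopolysaccharide co-receptor, was at 0 in the 5 cells and at 538 UMIs in the other 35, at least 30.3-fold lower. The phagocytic receptor Trem2 and the C5a receptor C5ar1 were at 0 against 108 and 150 UMIs. Rsad2 gave 2 UMIs against 336.

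A cell of this kind was present in the wild type library but outside the rule. It had 61 Pla2g2d, 15 Timd4, 877 Lyz2 and 3 Cd74 UMIs, with 2 C1q UMIs among 28561, and 5.72% insulin, 1.58% Gcg and 77 Chga UMIs. Cells with at least 10 Pla2g2d UMIs thus numbered 1 in the wild type and 5 in the transgenic library, and the absence of Pla2g2d from wild type macrophages holds only within the C1q limit. Outside the macrophages, no transgenic cell passed 4 Pla2g2d UMIs.

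**Figure D3:**
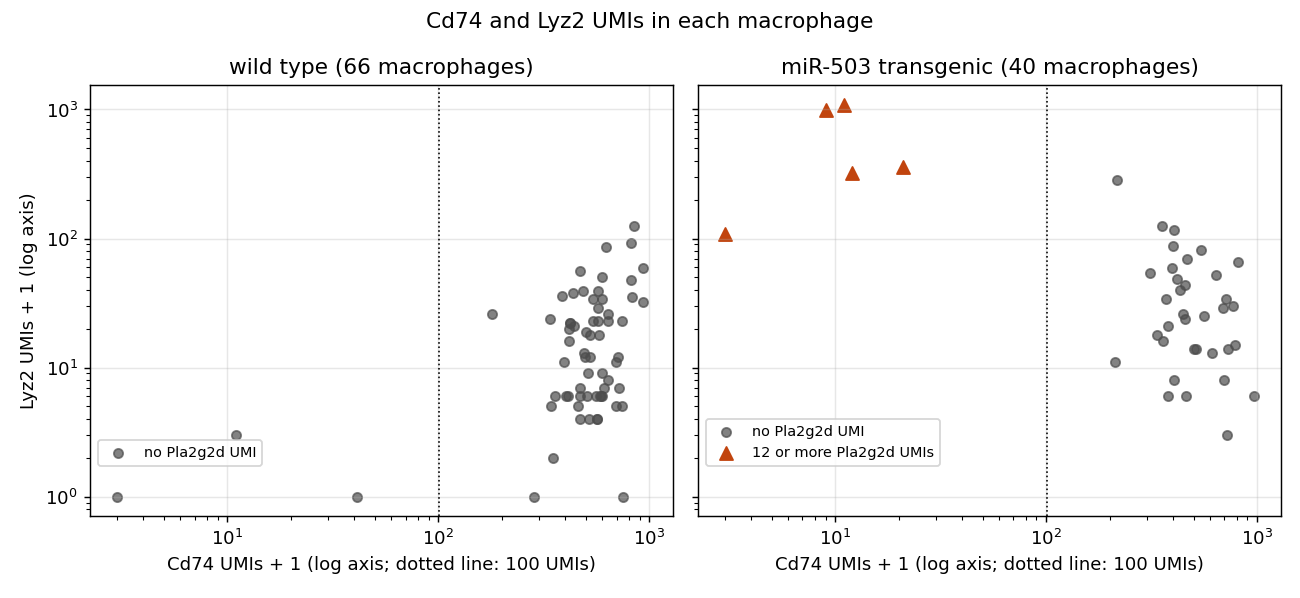
Cd74 (x axis) and Lyz2 (y axis) UMIs plus 1 in each macrophage on log axes, with 1 panel per library, a dotted line at 100 Cd74 UMIs and triangles for the cells with Pla2g2d. The 5 triangles lie at 2 to 20 Cd74 and 108 to 1091 Lyz2 UMIs, and the 3 wild type points left of the line have 0 to 2 Lyz2 UMIs.

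Between the genotypes, 47 of 2347 genes with at least 50 UMIs (2.0%) were at least 2-fold higher in transgenic macrophages and 78 (3.32%) at least 2-fold lower, after TMM scaling of the summed counts. The median log2 ratio of all tested genes was 0.01. Over the macrophages with at least 100 Cd74 UMIs, 16 of 2090 genes (0.766%) were 2-fold higher and 61 (2.92%) 2-fold lower. Some of the largest ratios rested on single cells. Gast and Cck, the lowest, had 410 of 415 UMIs each in the wild type cell described above, and Clu, a secreted chaperone, had 92.9% of its wild type UMIs in 1 cell. Without each gene's top cell Clu turned from -1.91 to 1.57, but on fewer UMIs than the minimum of 50.

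Interferon-induced genes were lower in the transgenic macrophages as a group. Of 27 genes with 50 UMIs, 25 had a log2 ratio below 0, beside 49.2% of all tested genes, and 8 were at least 2-fold lower, beside 3.32%. The median was -0.71. Over the macrophages with at least 100 Cd74 UMIs 24 of 26 were lower, with a median of -0.76, beside 55.6% of all tested genes. In cells with a Y-linked UMI and no Xist UMI (37 wild type, 19 transgenic) the median was -0.56. With cells of 5 to 9 C1q UMIs added it was -0.40, with 21 of 27 lower, and with at least 30 C1q UMIs -0.98. This pattern was among the earlier results known when the cells were chosen.

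Rsad2, which encodes the antiviral enzyme viperin, ran from 0 to 167 UMIs per cell (median 6) in wild type and from 0 to 47 (median 1) in transgenic macrophages. Its summed counts were 1979 and 338 UMIs, 3.26-fold lower in the transgenic library (log2 ratio -1.71, 95% interval -1.88 to -1.54). The distributions overlapped at the low end, and only wild type cells passed 47 UMIs. Isg15, a ubiquitin-like modifier, had a median of 12 UMIs (0 to 80) in wild type and 5 (0 to 34) in transgenic macrophages, with a log2 ratio of -1.06 (-1.24 to -0.88). Ifit2 (-2.02), Cmpk2 (-1.70), the RNA sensor Ifih1 (-1.50) and Ifit3b (-1.50) lay lowest together with Rsad2. Ifit3 and Ifit3b are close copies on chromosome 19, between which reads could be split. At the other end Ifi27l2a (0.29, 0.03 to 0.54) and Ifi203 (0.05, -0.29 to 0.37) were not lower.

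Ifnb1, which encodes interferon beta, had 89 UMIs in 16 wild type macrophages (0 to 33 per cell) and 13 UMIs in 7 transgenic ones (0 to 6 per cell), a log2 ratio of -1.93 (-2.90 to -1.09). Il6 had 124 UMIs in 19 cells and 11 in 5 cells (-2.65, -3.69 to -1.76), and the transcription factor Irf1 131 and 30 UMIs (-1.28, -1.91 to -0.70). The chemokine Cxcl10, also induced by interferon, had a median of 9 UMIs (0 to 166) in wild type and 2.5 (0 to 75) in transgenic macrophages (-0.88, -1.02 to -0.74). In beta cells the median of the interferon list was -0.34 with 20 of 27 lower, beside 53.0% of all genes tested there. It was -0.28 in alpha cells (13 of 20 lower, beside 50%), -0.11 in delta cells (4 of 5, beside 43.9%) and 0.12 in B cells (8 of 18, beside 35%). In endothelial cells it was -0.36 with 15 of 22 lower, a share near the 63.9% of all genes. The difference between macrophages and these classes was not tested.

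**Figure D4:**
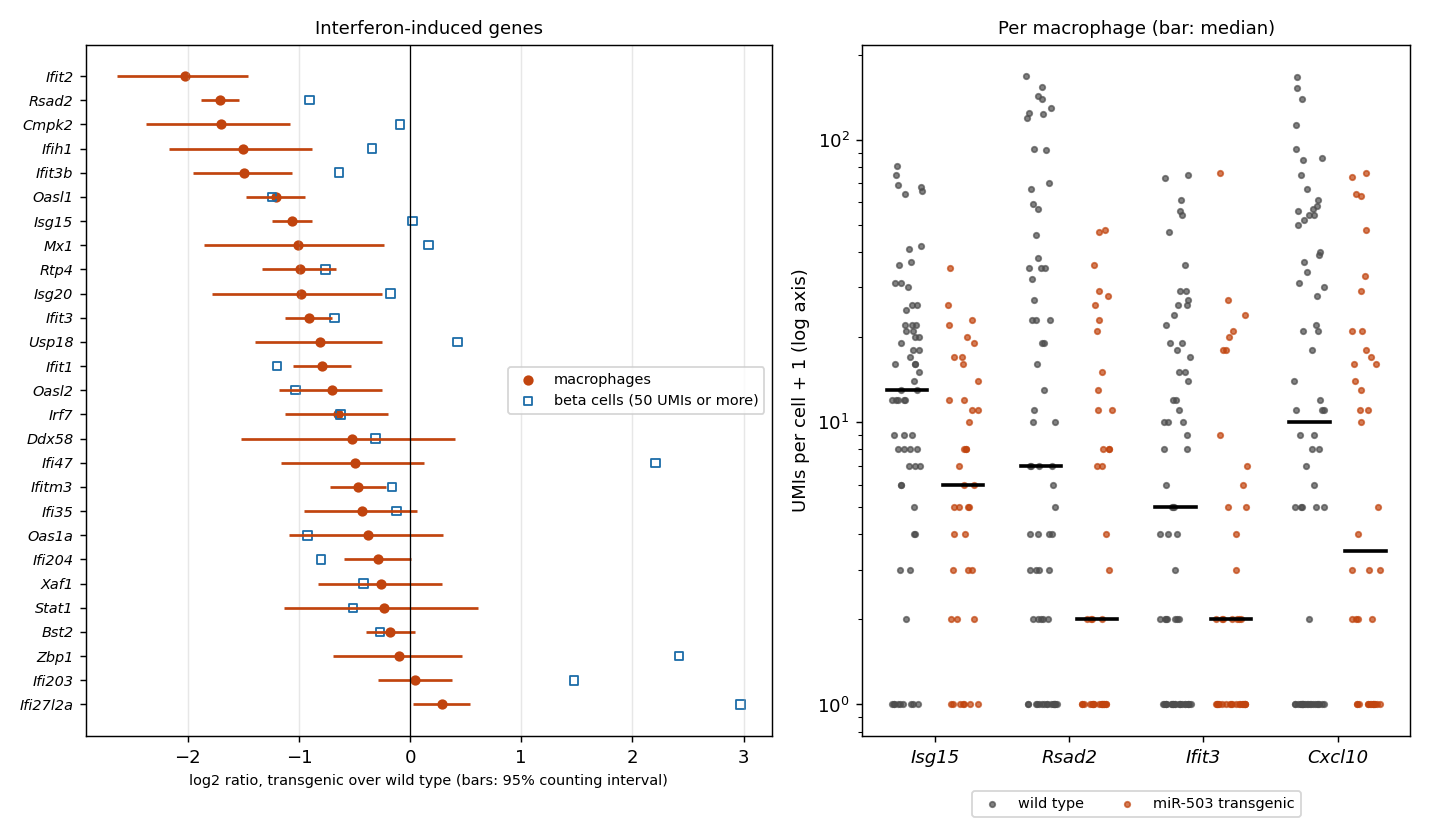
Left, log2 ratio of transgenic over wild type for 27 interferon-induced genes in macrophages (filled points, bars 95% counting intervals) and in beta cells (open squares, where 50 UMIs were counted). Right, UMIs plus 1 of Isg15, Rsad2, Ifit3 and Cxcl10 in each macrophage by library on a log axis, with black bars at the medians; 25 of the 27 filled points lie below 0 and all 4 medians are lower in the transgenic library.

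The promoters of the interferon-induced list were examined for the core of the interferon-stimulated response element, to which interferon-activated factors bind. The motif searched was GAAA, any 2 bases, then GAAA, on both strands, with overlapping matches counted, in RefSeq promoters (GRCm38.p6) from 250 bases before to 50 bases after each gene's start. Of the 27 interferon-induced genes tested, 20 had a promoter in the table, and 11 of these (55.0%) held the motif. The share was 5.60% of the 1821 genes tested in macrophages that had a promoter, and 3.44% of all 32851 promoters. The list was made of genes known to be induced by interferon, so a high share describes the list and not these macrophages or the genotypes. A match is a description of letters and not a bound site. The 4 promoters below belong to genes named on the list and are shown 5′ to 3′ on the gene's strand with the matches in capitals: Rsad2 (chr12:26456403-26456702, minus strand), Isg15 (chr4:156200769-156201068, minus), Ifit1 (chr19:34640639-34640938, plus) and Ifit3 (chr19:34583279-34583578, plus).
Rsad2: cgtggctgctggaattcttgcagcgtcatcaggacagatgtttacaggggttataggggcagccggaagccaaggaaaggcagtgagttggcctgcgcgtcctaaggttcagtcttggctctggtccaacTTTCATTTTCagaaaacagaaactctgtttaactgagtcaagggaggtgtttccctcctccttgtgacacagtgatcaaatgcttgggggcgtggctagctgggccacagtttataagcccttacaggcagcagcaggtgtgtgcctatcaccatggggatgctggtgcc
Isg15: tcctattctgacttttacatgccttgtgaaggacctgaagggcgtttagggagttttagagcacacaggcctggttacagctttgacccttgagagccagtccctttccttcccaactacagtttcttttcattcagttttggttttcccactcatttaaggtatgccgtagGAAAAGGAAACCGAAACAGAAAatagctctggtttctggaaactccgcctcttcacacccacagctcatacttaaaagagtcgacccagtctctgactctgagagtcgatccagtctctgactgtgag
Ifit1: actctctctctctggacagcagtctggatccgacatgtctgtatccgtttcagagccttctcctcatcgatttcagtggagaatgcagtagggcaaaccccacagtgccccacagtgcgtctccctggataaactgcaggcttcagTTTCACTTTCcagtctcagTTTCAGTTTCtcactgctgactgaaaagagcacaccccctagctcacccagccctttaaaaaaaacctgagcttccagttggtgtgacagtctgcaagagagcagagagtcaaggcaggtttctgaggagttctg
Ifit3: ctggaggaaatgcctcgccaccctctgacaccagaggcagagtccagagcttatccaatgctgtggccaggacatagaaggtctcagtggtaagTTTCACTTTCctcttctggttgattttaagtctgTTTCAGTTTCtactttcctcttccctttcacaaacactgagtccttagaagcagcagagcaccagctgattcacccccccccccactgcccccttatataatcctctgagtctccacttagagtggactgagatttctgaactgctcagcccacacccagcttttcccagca

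Rsad2 had 1 match, starting 120 bases before the gene's start. Isg15 had 3 that overlap in a single run, the first of them 78 bases before the start. Ifit1 had 2, at 104 and 85 bases before the start, and its log2 ratio was -0.79 (-1.05 to -0.53). Ifit3 had 2, at 156 and 122 bases, and its log2 ratio was -0.91 (-1.13 to -0.70). Ifit2 and Cmpk2, which were as low as Rsad2, held no match in this window.

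Heat shock genes were lower as well. Of 14 on the list, 13 had a log2 ratio below 0, beside 49.2% of all tested genes, and 3 were at least 2-fold lower, beside 3.32%. The median was -0.62. Hspb1, a small heat shock protein, had 917 and 224 UMIs (-1.19, -1.41 to -0.98), and the constitutive chaperone Hspa8 2438 and 724 UMIs (-0.91, -1.03 to -0.79). Hspa8 ran from 3 to 137 UMIs per cell (median 23) in wild type and from 3 to 62 (median 17.5) in transgenic macrophages, so that the low ends coincided. Alpha cells of the same libraries had 14 of 14 of these genes lower (median -0.43), beside 50% of all genes tested there. Endothelial cells had 12 of 14 lower (median -0.23), beside 63.9%. Beta cells had 3 of 14 lower (median 0.11), beside 53.0%. Delta cells had 6 of 14 lower (median 0.05), beside 43.9%, and B cells 5 of 12 (median 0.40), beside 35%. Hmox1, the haem-degrading oxygenase, had a median of 9.5 UMIs (0 to 215) in wild type and 3.5 (0 to 77) in transgenic macrophages (-1.23, -1.38 to -1.07). The peroxidase Prdx1 had 43 UMIs (1 to 208) and 14.5 (1 to 112), with a log2 ratio of -0.80 (-0.90 to -0.69). Enzymatic dissociation induces such genes in many tissues, and its part was not tested. The 17 tested genes of the immediate early and dissociation list had a median of -0.04, with 9 lower. In cells with a Y-linked UMI and no Xist UMI (37 wild type, 19 transgenic) the median was -0.70. There 13 of 14 were lower, beside 50% of all genes, and 5 were at least 2-fold lower, beside 89 of all 1450 genes.

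**Figure D5:**
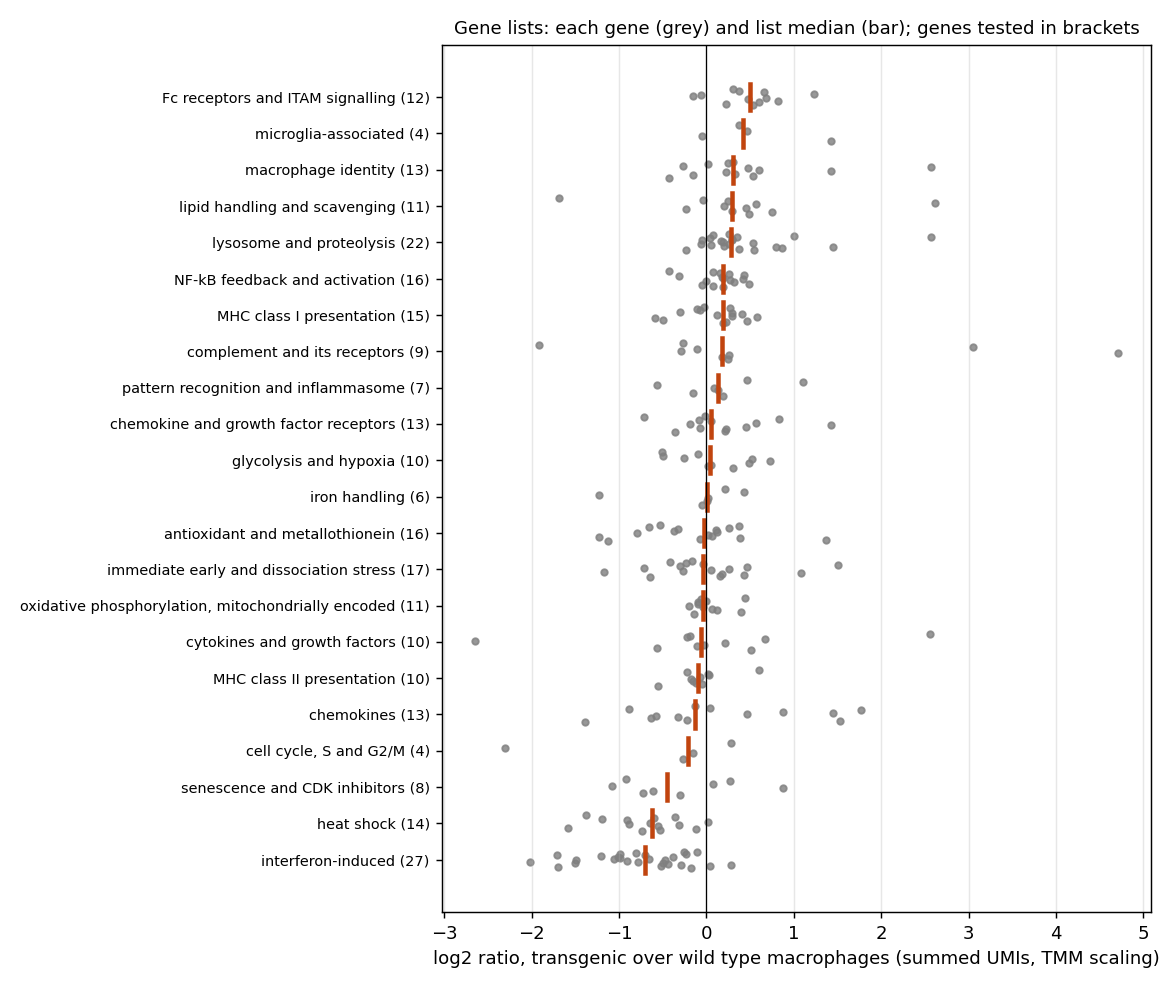
Log2 ratio of transgenic over wild type macrophages (x axis) for each tested gene (grey) of the lists with at least 4 tested genes (y axis, number tested in brackets), with the list median as a bar. Interferon-induced and heat shock genes have the lowest medians, at -0.71 and -0.62, and Fc receptor and ITAM genes the highest, at 0.50.

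On the higher side, Lyz2 ran from 0 to 125 UMIs (median 11) in wild type and from 2 to 1091 (median 31) in transgenic macrophages, a log2 ratio of 2.57 (2.48 to 2.66). Without the cells of under 100 Cd74 UMIs it was 1.06 (0.95 to 1.17). Lyz1, its neighbour and close copy, had 6 and 134 UMIs, of which 100 were in 1 transgenic cell, and reads of the pair could be split. The lysosomal protease Ctsd (1.45), the peroxidase Gpx1 (1.37), Fabp5 (2.61), the chemokines Ccl2 (1.53) and Ccl7 (1.45), and C3 (4.71) were among the 12 highest. Over the macrophages with at least 100 Cd74 UMIs these became 0.49, 0.77, 0.89, 0.04, 0.54 and 0.57, all under 2-fold. Ccl2 had 125 of its 184 transgenic UMIs in a single cell.

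Cxcl1 and Tnfsf9 did not depend on the cells of under 100 Cd74 UMIs. Cxcl1, a neutrophil chemokine, had 241 UMIs in 18 wild type macrophages (0 to 62 per cell) and 459 in 12 transgenic ones (0 to 204), with a log2 ratio of 1.77 (1.54 to 2.0) and 1.82 over macrophages with at least 100 Cd74 UMIs. Tnfsf9, the ligand of the co-stimulatory receptor 4-1BB, had 25 UMIs in 12 cells and 82 in 10 cells (2.56, 1.90 to 3.26, and 2.60). Most macrophages of both libraries lacked both transcripts, and single transgenic cells held 204, 107 and 68 of the 459 Cxcl1 UMIs. Igf1, an insulin-like growth factor, had 3 UMIs in 3 wild type and 28 in 10 transgenic macrophages (4.07, 2.37 to 6.43), below the 50 UMIs needed for the tested set.

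Macrophage core genes differed less. For the counts below, 1192 of all 2347 tested genes were higher, and 929 of 2090 over the macrophages with at least 100 Cd74 UMIs. With at least 30 C1q UMIs the median of all genes was -0.08. The 13 tested identity genes had a median of 0.31 with 10 higher, which became 0.18 with 8 higher over the macrophages with at least 100 Cd74 UMIs and 0.04 with at least 30 C1q UMIs. Csf1r was 0.23 (-0.06 to 0.51) and turned to -0.13 (-0.45 to 0.18) over the macrophages with at least 100 Cd74 UMIs. Tyrobp was 0.31 (0.19 to 0.42) and Cd68 0.33 (0.09 to 0.56), and over those macrophages 0.18 and 0.20. Apoe was 0.30 (0.26 to 0.33) and 0.04 over the macrophages with at least 100 Cd74 UMIs. Of 12 Fc receptor and ITAM genes, 10 were higher, with a median of 0.50; the activating receptor Fcgr3 had 107 and 105 UMIs (0.82, 0.41 to 1.22). Its median was 0.52 over the macrophages with at least 100 Cd74 UMIs. Of 22 lysosomal genes 19 were higher, with a median of 0.28, which became 0.01 without the cells of under 100 Cd74 UMIs. Of 16 NF-kB feedback genes 12 were higher, with a median of 0.19, and the inhibitor Nfkbia had medians of 15 UMIs (1 to 54) and 20.5 (0 to 65). With at least 30 C1q UMIs the NF-kB median turned to -0.11. No gene of that list reached 2-fold.

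MHC lists had medians close to that of all genes. Of 10 class II genes 7 were lower, beside 49.2% of all tested genes, with a median of -0.10 and none at 2-fold. Cd74 had a median of 531.5 UMIs per cell (2 to 938) in wild type and 438.5 (2 to 966) in transgenic macrophages, and a log2 ratio of -0.12 (-0.15 to -0.09). Of 15 class I genes 9 were higher, with a median of 0.18. Over the macrophages with at least 100 Cd74 UMIs the class I median became -0.16, with 13 lower, beside 55.6% of all genes. Of 10 tested cytokines and growth factors 6 were lower, from -2.65 (Il6) to 2.56 (Tnfsf9), with a median of -0.06. Il1b (-0.03, -0.22 to 0.17) and Tnf (-0.19, -0.37 to -0.01) lay between, as did Il10 (-0.56) and Pdgfa (0.67). The chemokine list was mixed, with 7 of 13 lower and a median of -0.13. Ccl3 was -0.63 (-0.72 to -0.54), Ccl5 -0.57 (-0.66 to -0.48) and Ccl12 -1.39 (-2.01 to -0.81), opposite to Cxcl1.

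Senescence genes and known targets of the miR-503 family could be read only in part. Of 8 tested genes on the list of senescence genes and cell cycle inhibitors, 5 were lower, beside 49.2% of all tested genes, with a median of -0.46. This list also holds the cyclins Ccnd1 and Ccnd2, which are not inhibitors and are counted again below as targets. Its median therefore has no single direction of meaning. The inhibitor Cdkn1a, which encodes p21, had a median of 8 UMIs (0 to 40) in wild type and 5.5 (0 to 20) in transgenic macrophages (-0.61, -0.83 to -0.40). Of 23 listed targets of the miR-503 family 3 had 50 UMIs, and all 3 were lower, beside 49.2% of all tested genes: Ccnd2 (-0.72), Ccnd1 (-0.30) and Cdk6 (-0.03), cyclins and a kinase of the G1 phase. The interval of Ccnd1 ran from -1.17 to 0.51 and that of Cdk6 from -0.57 to 0.49. Over the macrophages with at least 100 Cd74 UMIs Cdk6 was 0.02. With a minimum of 20 UMIs 6 of 8 targets were lower, beside 2365 of all 4601 genes. None of the 20 sterol and fatty acid synthesis genes reached 50 UMIs.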

How the data were processed

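The deposited files held whole-number UMI counts per gene and cell barcode from 10x 3' libraries, which the authors made on the mm10 build using STAR 2.5.1b and Cell Ranger 2.1.0, per the submitters' processing notes. The annotation release and the rule that kept barcodes are not given in the sources used here. Of 4540 wild type and 4158 transgenic barcodes, 4523 and 4151 had at most 10% mitochondrial UMIs. The macrophages and all gene lists were chosen with earlier results of these data known. Other classes were beta (insulin at least 30% of UMIs), alpha (Gcg at least 10%) and delta cells (Sst at least 10%), and endothelial and B cells (at least 10 UMIs of their markers with low hormone).

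For each library the counts of a class's cells were added up, and genes with at least 50 UMIs over both libraries were compared. Genotype sums were scaled by TMM (edgeR 4.0.16, R 4.3.3). Ratios carry exact conditional binomial intervals at 95%. A ratio against 0 was bounded at 3 UMIs over the group. Genes were called at 4-fold over each other class or at 2-fold between genotypes, with no p-values. Doublets were scored with Scrublet in scanpy 1.11.5. Its top 4% per library held 0 wild type and 1 transgenic macrophage, and no cell was removed. Coordinates are from GENCODE M21, matched for 2345 of the 2347 genes. The scripts (Python 3.11.15, numpy 2.4.6, scipy 1.17.1, pandas 2.3.3, matplotlib 3.10.9) were tested on simulated data.

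Genes were named by rule: the 15 most abundant and the 10 of highest ratio among identity genes, the 12 highest and 12 lowest genotype ratios among genes with at least 100 UMIs and 50 CPM that were not over 5 times higher in another class, up to 4 genes per list, the 12 with the largest spread, and genes of prior interest. Genes of the Pla2g2d-bearing cells, and other genes named to illustrate a list or a class, were chosen after their values were seen. Alternatives changed the scaling, the count minimum, the limits of the rule, doublets, depth, sex-linked transcripts and single cells.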

Additional observations from a re-analysis of the deposited data

Results flagged for a closer look

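Cells with at least 10 C1q UMIs that a hormone limit kept out of the macrophages numbered 18 in the wild type and 3 in the transgenic library, and no comparison used them. The wild type cells held 10 to 98 C1q UMIs (median 29.5), 0 to 429 Cd74 UMIs (median 106.5) and a median of 27.9% insulin. The transgenic cells held 12, 20 and 449 C1q UMIs. The one with 449 also had 1167 Lyz2 and 95 Cd74 UMIs and 22.5% insulin. Whether such droplets hold more than 1 cell was not tested.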

How the results depend on the processing

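No paired analysis was possible because each genotype has 1 library. The setting of cells with a Y-linked UMI kept only 37 wild type and 19 transgenic macrophages. Under the other alternatives run, the macrophage shares moved by less than their intervals. Under all of them, the interferon median (-0.40 to -0.98) and NF-kB median (-0.11 to 0.44) moved by less than the spread of their genes. The identity count of 133 became 79 with at least 200 UMIs, 271 at 2-fold and 49 at 10-fold. The 57.8% of genes with excess spread became 53.2% with at least 30 C1q UMIs, 65.6% with at least 5, 43.6% after thinning and 53.1% without each gene's top cell. The 47 genes higher became 149 with at least 20 UMIs, 9 with at least 200, 82 with at least 5 C1q UMIs, 19 without cells bearing other types' markers, 22 in cells with a Y-linked UMI, 16 with at least 100 Cd74 UMIs, 18 after thinning and 31 without the top cell. The 78 lower became 312 with at least 20 UMIs, 16 with at least 200 and 126 with at least 5 C1q UMIs. The MHC class II median became -0.32 with at least 30 C1q UMIs, 0.23 with at least 5 and -0.31 after thinning, which moved the median of all genes to -0.12. The lysosome median became 0.0148 without cells bearing other types' markers and 0.0141 with at least 100 Cd74 UMIs. In the transgenic library, the setting without cells bearing other types' markers left out cells by Cd4, which it counts as a T cell marker. Pla2g2d-bearing macrophages were among them, so this setting overlaps with the limit of 100 Cd74 UMIs. It kept the wild type cell rich in Gast and Cck. Signs turned without cells bearing other types' markers for Fabp5 (-0.35), Ccl2 (-0.0293), Fos (0.00667), Chka (-0.0286) and Clu (1.11). They turned in cells with a Y-linked UMI for Klf2 (-1.52), Ccl2 (-0.26), Egr1 (-1.10) and Chka (-0.64), and after thinning for Man2b1 (-0.0309). Clu was 1.57 with at least 30 C1q UMIs, 1.39 with at least 100 Cd74 UMIs and 1.57 without its top cell, and Chka -0.0417 with at least 100 Cd74 UMIs. With at least 5 C1q UMIs, cells rose to 77 wild type and 43 transgenic, and tested genes to 2879. The 11 wild type cells with 5 to 9 C1q UMIs held medians of 2 Cd74, 0 Tyrobp and 0 Lyz2 UMIs. Many other settings also changed the number of cells or genes, and the cause of each move was not tested. Genes of few UMIs per cell, Csf1r and Ifnb1 among them, are limited by depth.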
